A study of Mus musculus with 120 samples.

Results

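The gene group described here covers glucose uptake and glycolysis: Slc2a1, Hk1, Hk2, Pfkl, Aldoa, Gapdh, Pgk1, Eno1, Pkm and Ldha. These 10 genes were matched by symbol among the 48371 gene symbols (48555 entries) of the deposited expression table, and all 10 were found. They were read in single cells of the endolymphatic sac, the pouch of the mouse inner ear that takes part in clearing its fluid, from E14.5 embryos. The cells, 58 wild-type and 62 with 1 Sox9Y440X allele and 1 wild-type allele (Sox9Y440X/+), had been sequenced over the whole transcript by Smart-seq2. The Y440X name stands for a stop codon in SOX9, a SoxE transcription factor, and the sources used here give neither strain, sex nor litter. No label ties a cell to an animal, so each genotype is 1 sample, every difference below is one between the cells measured, and no difference has a replicate check or a p-value.

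Glucose enters cells through facilitative transporters and is trapped by hexokinase as glucose 6-phosphate. Phosphofructokinase commits it to glycolysis, aldolase splits the sugar, and the later steps yield ATP at phosphoglycerate kinase and pyruvate kinase. Pyruvate is then reduced to lactate by lactate dehydrogenase or enters mitochondria. Several steps are served by isoenzymes encoded by separate genes, which differ between tissues. Ionocytes are epithelial cells that move acid with ATP-driven pumps and also move anions.

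Cells with at least 1000 genes in their label were used, 57 wild-type and 58 Sox9Y440X/+. The number of genes per cell ranged from 1209 to 6459. The values are FPKM, which divides fragments by transcript length and by the total of the cell, so the depth of a cell is unknown. Values of 1 FPKM or more were taken as detection. Clustering without the metabolic genes gave 56 wild-type and 37 Sox9Y440X/+ epithelium-like cells, which included 8 and 5 ionocyte-like cells, and 1 wild-type and 20 Sox9Y440X/+ mesenchyme-like cells. Of 14 epithelium markers, wild-type epithelium-like cells had a median of 11 (5 to 14), Sox9Y440X/+ epithelium-like cells 12 (7 to 14) and Sox9Y440X/+ mesenchyme-like cells 0 (0 to 1). Of 14 mesenchyme markers, the mesenchyme-like cells had a median of 9 (3 to 13) and no epithelium-like cell had more than 3. Of 16 ionocyte markers the ionocyte-like cells had 11 to 13 in wild type and 6 to 10 in Sox9Y440X/+. A single Sox9Y440X/+ cell with 11 of 11 endothelium markers was set apart. Among epithelium-like cells 29 of 56 from wild type and 36 of 37 from Sox9Y440X/+ had the Sox9 transcript, but FPKM does not separate the alleles and so does not check the labels. Xist, expressed from the inactive X chromosome, was detected in 34 of 56 wild-type epithelium-like cells and in 0 of 58 Sox9Y440X/+ cells, so genotype and the sex of the cells cannot be told apart over all cells. The 2 genotypes filled some epithelium-like clusters unequally. Cluster 6, led by the otoconial gene Oc90, held 19 wild-type cells and 1 Sox9Y440X/+ cell, cluster 2 held 1 and 10, and cluster 7 held 1 and 5. Cluster 3 held 11 and 11, and cluster 5 held 6 and 5. Cluster 8, with a median of 2015 genes per cell, held 10 wild-type cells and the 3 Sox9Y440X/+ cells that were counted as mesenchyme-like by their own markers.

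Across the whole gene group, epithelium-like cells had Aldoa, Gapdh, Eno1, Pkm and Ldha in most cells and at high levels, and Hk1 and Hk2 in few. The 10 genes summed to a median of 2031 FPKM in wild-type epithelium-like cells, 1465 in Sox9Y440X/+ epithelium-like cells and 1594 in Sox9Y440X/+ mesenchyme-like cells. As a share of all FPKM in a cell the medians were 0.436%, 0.302% and 0.350%. Among wild-type ionocyte-like cells the median share was 0.670%, against 0.412% in the other wild-type epithelium-like cells. The median cell had 7 of the 10 genes detected in each of the 3 classes.

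**Figure D1:**
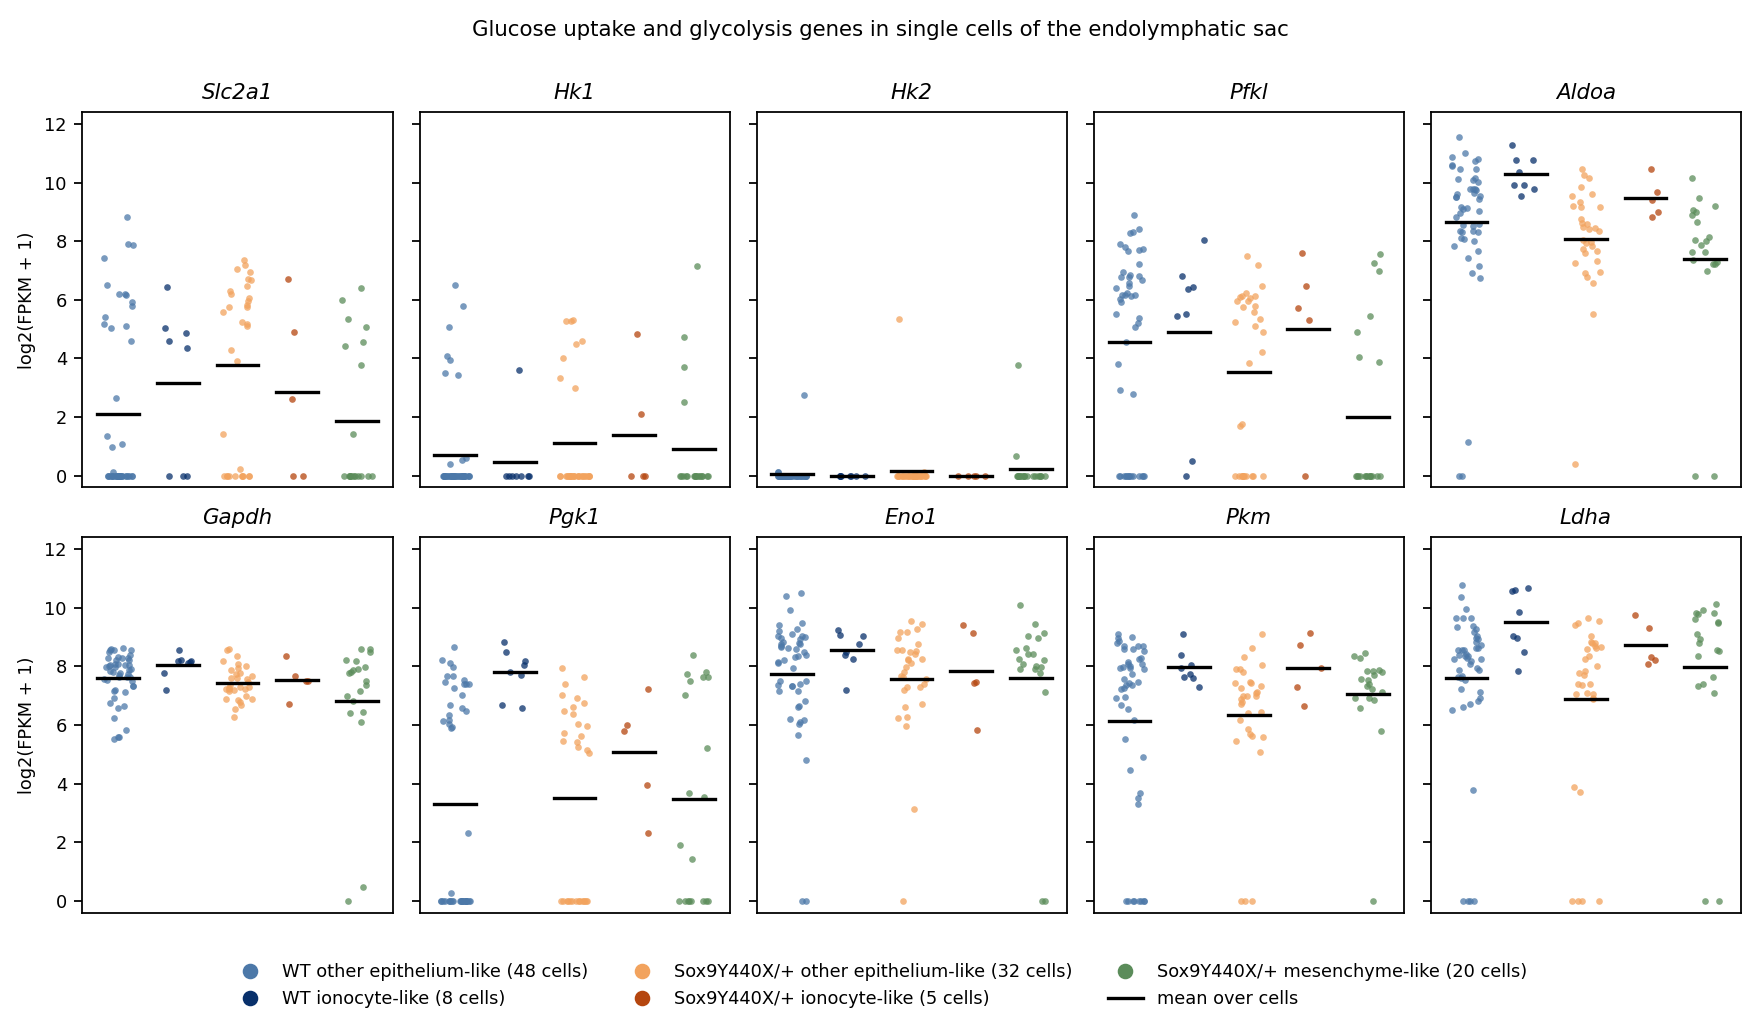
Each point is 1 cell, the vertical axis is log2(FPKM + 1), colours mark the 5 groups of cells and black lines are means over cells. Aldoa, Gapdh, Eno1 and Ldha lay high in nearly all cells, Slc2a1, Pfkl and Pgk1 were split between cells at 0 and cells well above it, and Hk1 and Hk2 were at 0 in most cells.

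Slc2a1 encodes GLUT1, the transporter that many embryonic epithelia use for basal glucose uptake. Its FPKM in wild-type epithelium-like cells ran from 0 through a median of 0 to 456, with 23 of 56 cells detected (41.1%, exact 95% interval 28.1% to 55.02%). In Sox9Y440X/+ epithelium-like cells it ran from 0 through 33.8 to 162, with 24 of 37 cells detected (64.9%, 47.5% to 79.8%). Mesenchyme-like cells of that genotype had it in 8 of 20 cells, up to 84.3 FPKM. The ranges overlapped in full, the single highest cells were wild-type, and what differed was how many cells had the transcript. Intervals of this kind cover counting error only. Slc2a3, which encodes GLUT3, was detected in 0 of 56 and 0 of 37 epithelium-like cells, and 0 of 56 allows a share of cells with a detected value of up to 5.36% (3 cells of 56). Slc2a1 thus had the higher level of the pair in every cell with either one, 23 wild-type and 24 Sox9Y440X/+ epithelium-like cells and 8 mesenchyme-like cells. Slc2a3 overlaps the processed pseudogene Gm4482 on the same strand, which was detected in 26 cells (mean 1.46 FPKM). Reads in the shared stretch could belong to either.

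Hk1 and Hk2 encode the hexokinases usual in embryonic and insulin-responsive tissues. Hk1 was detected in 8 of 56 wild-type epithelium-like cells (14.3%, 6.38% to 26.2%), up to 89.2 FPKM, in 10 of 37 Sox9Y440X/+ epithelium-like cells (27.03%), up to 38.9 FPKM, and in 4 of 20 mesenchyme-like cells, up to 139.8 FPKM. Hk2 was detected in 1 cell of each of these 3 groups, at 5.71 FPKM in the wild-type cell. Hk1 had the higher level in 8 of 9, 10 of 11 and 4 of 4 of the cells with either gene. Any of the 5 hexokinase family genes measured was detected in 21 of 93 epithelium-like cells of both genotypes (22.6%, 14.6% to 32.4%). That was the lowest share of any step, and the next lowest were phosphoglycerate kinase with 58.1% and the transporters with 60.2%. Glucose-6-phosphate isomerase, encoded by Gpi1 and acting directly after hexokinase, was detected in 83.9%, phosphofructokinase in 78.5% and aldolase in 97.8%. A transcript at low copy number can be missed in a single cell, so a listed 0 is not absence, and the share of cells that make hexokinase is not known from these values.

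**Figure D2:**
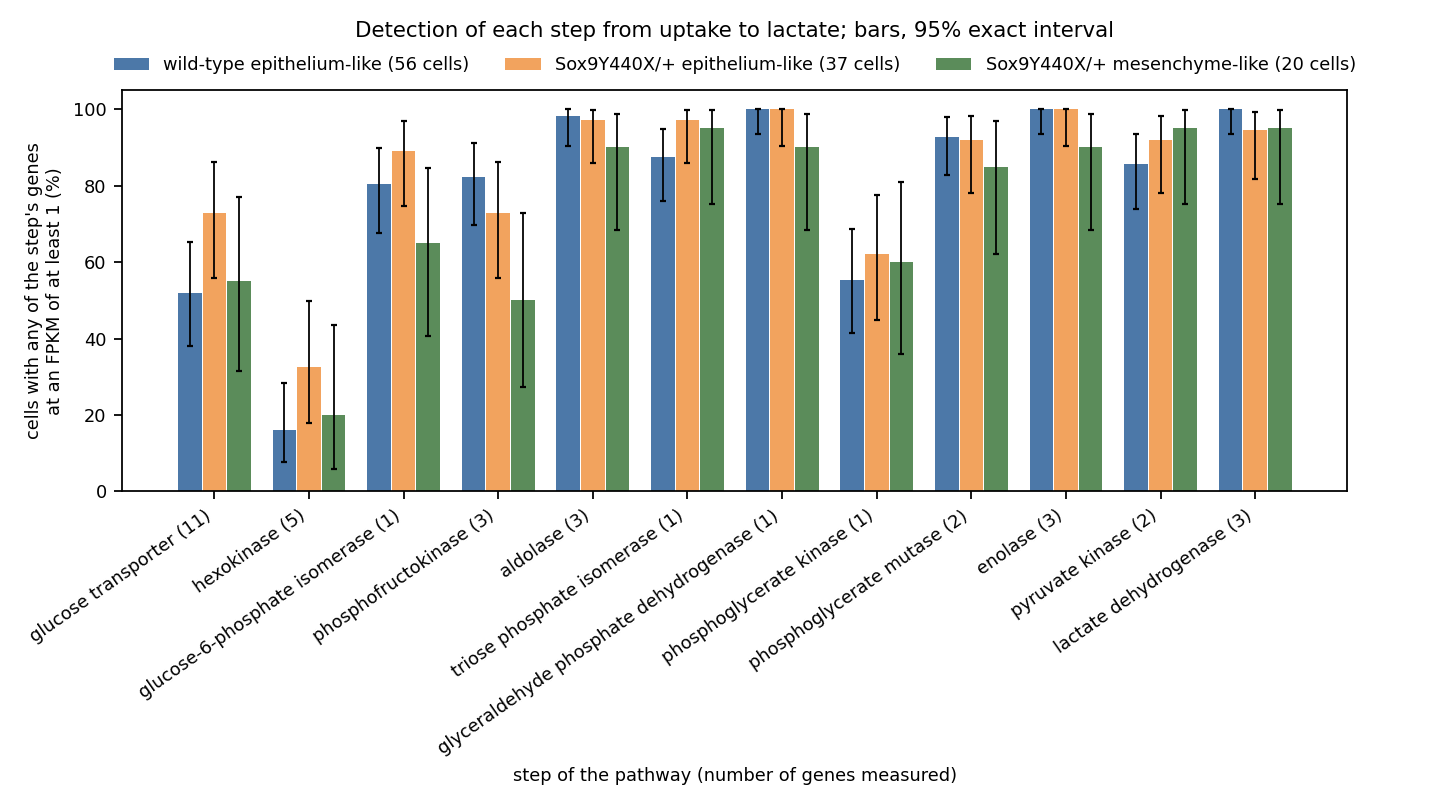
Bars give the percent of cells with any gene of a step at an FPKM of at least 1 in wild-type epithelium-like, Sox9Y440X/+ epithelium-like and Sox9Y440X/+ mesenchyme-like cells, with exact 95% intervals as lines and the number of genes measured per step in brackets. Hexokinase was lowest in all 3 groups (16.1%, 32.4% and 20%), and every step from aldolase on except phosphoglycerate kinase was at or above 85% in each.

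Pfkl encodes the liver-type subunit of phosphofructokinase. Its wild-type epithelium-like values ran from 0 through a median of 66.8 to 475 FPKM with 40 of 56 cells detected (71.4%). The Sox9Y440X/+ values ran from 0 through 36.8 to 194 FPKM with 25 of 37 cells detected (67.6%). In mesenchyme-like cells the median was 0, the highest 189 FPKM, and 7 of 20 cells were detected. Among cells with Pfkl or the platelet-type gene Pfkp, Pfkl was the higher in 34 of 44 wild-type and 21 of 27 Sox9Y440X/+ epithelium-like cells.

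Aldoa encodes aldolase A, and it had the highest mean of the 10 genes in wild-type epithelium-like cells, 835 FPKM. Its values there ran from 0 through 736 to 3018, with 2 of 56 cells listed at 0. The range in Sox9Y440X/+ epithelium-like cells was 0.323 through 354 to 1424, and in mesenchyme-like cells 0 through 245 to 1151. The ranges overlapped, and both Sox9Y440X/+ medians lay below the wild-type one. Aldoa exceeded Aldoc, the gene of the brain-type aldolase, in 54 of 55 wild-type cells with either, and in 35 of 36 of the Sox9Y440X/+ ones. It was the highest of the 10 genes in 35 of 56 wild-type and 17 of 37 Sox9Y440X/+ epithelium-like cells, and in 6 of 20 mesenchyme-like cells.

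Gapdh encodes glyceraldehyde-3-phosphate dehydrogenase and varied least of the abundant enzymes among epithelium-like cells. It was detected in all 56 wild-type cells, at 44.9 through 238 to 393 FPKM, and in all 37 Sox9Y440X/+ cells, at 77.1 through 175 to 388. Its SD over wild-type cells was 0.79 on the log2 scale, against 2.34 for Aldoa and 3.68 for Pgk1. The level of Gapdh is uncertain because the table holds 180 near-identical copies elsewhere in the genome, of which 82 were detected, and they carried 65.6% of the FPKM summed over Gapdh and copies. With the copies added, the medians were 725, 489 and 587 FPKM in wild-type epithelium-like, Sox9Y440X/+ epithelium-like and mesenchyme-like cells.

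Pgk1 encodes phosphoglycerate kinase and lies on the X chromosome. It was detected in 31 of 56 wild-type epithelium-like cells (55.4%, 41.5% to 68.7%), with values of 0 through 62.8 to 457 FPKM. Sox9Y440X/+ epithelium-like cells had it in 23 of 37 (62.2%), at 0 through 36.9 to 248, and mesenchyme-like cells in 12 of 20, at 0 through 6.69 to 332. Most epithelium-like cells either had Pgk1 clearly or were listed at 0, and the groups overlapped. The mean of log2(FPKM + 1) was 3.66 in the 34 wild-type epithelium-like cells with Xist and 4.40 in the 22 without.

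Eno1 encodes the enolase found in most tissues. Its values were 0 through 335 to 1456 FPKM in wild-type epithelium-like cells, 0 through 249.5 to 757 in Sox9Y440X/+ epithelium-like cells and 0 through 298 to 1085 in mesenchyme-like cells, so the 3 groups overlapped widely. Near-identical copies held 24.2% of its summed FPKM, most of it in Eno1b, a copy whose sequence was 99.5% identical. The muscle-type enolase gene Eno3 was detected in 31 of 56 and 26 of 37 epithelium-like cells but in 0 of 20 mesenchyme-like cells, which allows a share of cells with a detected value of up to 15% (3 cells of 20). Eno1 was the higher of the pair in 38 of 56 wild-type and 25 of 37 Sox9Y440X/+ epithelium-like cells and in 18 of 18 mesenchyme-like cells with either.

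Pkm encodes the muscle-type pyruvate kinase, whose splice forms this gene-level table does not separate. It ran from 0 through 197 to 549 FPKM in wild-type epithelium-like cells with 48 of 56 detected. The Sox9Y440X/+ epithelium-like cells ran from 0 through 128 to 561 with 34 of 37 detected, and the mesenchyme-like cells from 0 through 178 to 352 with 19 of 20 detected. Again the groups overlapped, with the lowest median in Sox9Y440X/+ epithelium-like cells.

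Ldha encodes the lactate dehydrogenase subunit common in glycolytic tissues, and Ldhb the subunit common in oxidative ones. Ldha ran from 0 through 340 to 1776 FPKM in wild-type epithelium-like cells (52 of 56 detected), from 0 through 271 to 855 in Sox9Y440X/+ epithelium-like cells (33 of 37) and from 0 through 468 to 1107 in mesenchyme-like cells (18 of 20). Ldhb ran from 0 through 259 to 1632 in wild-type epithelium-like cells (45 of 56), from 0 through 141 to 1369 in Sox9Y440X/+ epithelium-like cells (26 of 37) and was detected in 10 of 20 mesenchyme-like cells. Both genes overlapped between groups, and the order of the pair within a cell differed. Ldha was the higher in 30 of 56 wild-type epithelium-like cells (53.6%, 39.7% to 67.0%), in 25 of 35 Sox9Y440X/+ epithelium-like cells with either (71.4%, 53.7% to 85.4%) and in 17 of 19 mesenchyme-like cells (89.5%). Ldha was also the highest of the 10 genes in 11 of 20 mesenchyme-like cells, against 7 of 56 wild-type and 11 of 37 Sox9Y440X/+ epithelium-like cells.

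The motif ACGTG, the core of the site bound by hypoxia-inducible factors and by some E-box factors, was searched on both strands in the 250 bases before annotated starts (RefSeq, GRCm38.p6). It stood in windows of 6 of the 10 genes, Slc2a1, Hk2, Aldoa, Pgk1, Pkm and Ldha, against 18.5% of 27025 genes and 16.6% of 32851 windows. The 10 genes had 17 windows, 7 of them with the motif, and genes with several starts have more chances of a match. Stretches of the Pgk1 and Ldha windows are shown because Pgk1 had the largest difference of the 10 between ionocyte-like and other cells in wild type, and Ldha in Sox9Y440X/+, as given further on. Capitals mark ACGTG or its reverse complement CACGT, joined where they overlap, and both are on the plus strand of their gene. Pgk1 spans chrX:106187100-106203699 and Ldha chr7:46841475-46855627 (GRCm38), and no annotated exon overlaps either stretch. The start meant for Pgk1 is chrX:106187100. For Ldha it is a RefSeq start at chr7:46845804, inside the annotated span of the gene, so the Ldha stretch lies inside that span too. The other Ldha window, before chr7:46847082, had 0 matches.
Pgk1, chrX:106186935-106186988, ending 111 bases before the start: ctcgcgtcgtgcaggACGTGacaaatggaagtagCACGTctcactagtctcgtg
Ldha, chr7:46845644-46845789, ending 14 bases before the start: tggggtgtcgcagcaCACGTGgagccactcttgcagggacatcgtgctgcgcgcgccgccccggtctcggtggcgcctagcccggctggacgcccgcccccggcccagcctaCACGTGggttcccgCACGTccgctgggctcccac
A match of letters is not a bound site, and factor binding was not measured in these cells.

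By mean FPKM in wild-type epithelium-like cells the order was Aldoa, Ldha, Eno1, Gapdh, Pkm, Pgk1, Pfkl, Slc2a1, Hk1 and Hk2. The places of Gapdh and Eno1 depended on their copies: with these added the means were 684 and 482 FPKM, both between Aldoa (835) and Ldha (459.7). Within single cells, without the copies, some neighbours in that order were clearly ranked: Aldoa exceeded Ldha in 44 of 56 cells, Pkm exceeded Pgk1 in 40 and Pfkl exceeded Slc2a1 in 35. Other neighbours were not separated: Ldha exceeded Eno1 in 31 cells, Gapdh exceeded Pkm in 30, and Pgk1 exceeded Pfkl in 26 while Pfkl was higher in 21. The 5 abundant enzymes Aldoa, Gapdh, Eno1, Pkm and Ldha were detected together in 43 of 56 wild-type epithelium-like, 31 of 37 Sox9Y440X/+ epithelium-like and 17 of 20 mesenchyme-like cells. At the other end were 3 Sox9Y440X/+ cells with 2 or fewer of the 5, 1 epithelium-like cell with 1959 genes and 2 mesenchyme-like cells with 1406 and 1773 genes. The only wild-type mesenchyme-like cell had Ldha at 680 FPKM, Eno1 at 514, Pkm at 456, Pfkl at 220, Aldoa at 219 and Gapdh at 149.6, with Slc2a1, Hk1, Hk2 and Pgk1 listed at 0. In the cell with endothelium markers Slc2a1 was the highest of the 10, at 263 FPKM, followed by Ldha at 207, Eno1 at 142, Pgk1 at 110 and Pkm at 96.2, with the other 5 genes listed at 0.

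The first comparison set Sox9Y440X/+ against wild-type epithelium-like cells, as the difference of mean log2(FPKM + 1), a scale that understates differences of genes with low values. Here Slc2a1 was higher in Sox9Y440X/+ cells by 1.42 (1.31 to 1.53 when any 1 cell was left out) and most enzymes were lower by less than 1 log2 unit. Ldha differed by -0.73, Aldoa by -0.62, Pfkl by -0.87, Eno1 by -0.25, Gapdh by -0.22 and Pgk1 by -0.21. Pkm differed by 0.14 and Hk1 by 0.47. Among the other isoenzymes Ldhb differed by -1.66, Aldoc by 0.65, Eno3 by 0.67 and Pfkp by 0.06. Counted were genes found in 25% or more of the cells in either group, which took in all of the 10 but Hk2. Of these 9, 3 differed upwards and 6 downwards, with 1 higher by at least 1 log2 unit and 0 lower by as much. Over all 5957 genes counted, 13.5% were higher by at least 1 log2 unit and 2.2% lower, 72.8% lay above 0 and 27.2% below, and the median was 0.36, against -0.22 for the 10 genes. Of these 5957 genes, 3.1% lay below Pfkl, 4.5% below Ldha and 5.7% below Aldoa, against 95.3% below Slc2a1. For the others of the 9 the shares ran from 15.2% (Eno1) to 58.3% (Hk1). The Sox9Y440X/+ cells had more genes per cell, a median of 4506 against 3241.5, and the part of this in the differences was not tested. With cells of 2500 to 5500 genes the median of the 10 was 0.05 and that of all genes 0.23, and against the wild-type cells without Xist the values were -0.52 and 0.18. Slc2a1 differed by 1.53 in the first of these settings and by 1.63 in the other. On the means of FPKM the difference was smaller, 43.7 against 33.7, a log2 ratio of 0.37, and among cells with Slc2a1 detected it was 0.22.

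Cluster 3, the only epithelium-like cluster to which both genotypes gave the same number of cells, was looked at after its values were seen. Its 11 wild-type and 11 Sox9Y440X/+ cells had median gene numbers of 5346 and 5237. Pkm was 122 through 267 to 548 FPKM in the wild-type cells and 32.9 through 85.0 to 242 in the Sox9Y440X/+ cells, a difference of -1.64 (-1.79 to -1.51 when any 1 cell was left out), so the groups overlapped in the middle with the wild-type median above the highest Sox9Y440X/+ value. Aldoa was 1.20 through 753 to 1533 FPKM in wild-type cells and 108 through 225 to 640.1 in Sox9Y440X/+ cells, a difference of -0.71 (-1.47 to -0.52). Ldha was 103 through 487 to 1314 FPKM against 0 through 303 to 755, a difference of -1.20 (-1.41 to -0.46). Pfkl was 5.93 through 83.4 to 149 FPKM against 0 through 46.9 to 88.4, a difference of -1.47. Both extremes and all medians of these 4 genes, except for the lowest Aldoa value, were higher in wild type. Ldhb differed by -2.43, Aldoc by -1.80, Pgk1 by -0.76 (-1.32 to -0.27) and Slc2a1 by 0.70 (0.28 to 1.29), with Eno3 at 0.95 (0.46 to 1.54) and Pfkp at -0.26. Of the 9 genes counted, 8 were lower in Sox9Y440X/+ cells, 3 of them by at least 1 log2 unit, and 0 were higher by as much. Over all 8398 genes counted, 53.3% were lower, 17.6% by at least 1 log2 unit, 46.7% were higher, 12.3% by as much, and the median was -0.08, against -0.73 for the 10 genes. Slc2a1 was the only one of the 9 above 0, and 0.70 lies below its 1.42 over all epithelium-like cells. By share of cells Slc2a1 was highest in clusters 7 and 2, detected in 83.3% and 81.8%, which held mostly Sox9Y440X/+ cells. By mean FPKM cluster 7 (123) was followed by cluster 5 (57.5), with 6 wild-type and 5 Sox9Y440X/+ cells, and cluster 2 (46.5).

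Mesenchyme-like cells were then compared with epithelium-like cells of the same genotype, Sox9Y440X/+. Slc2a1 differed by -1.81 and Pfkl by -1.73, both lower in mesenchyme-like cells. Ldha at 0.84 (0.64 to 1.26) and Pkm at 0.52 lay on the other side of 0, and Eno1 at -0.02, Hk1 at -0.24, Pgk1 at -0.26, Gapdh at -0.62 and Aldoa at -0.89 (-1.11 to -0.50) were between. Of the 9 genes counted, 2 lay above 0 and 7 below, with 0 higher and 2 lower by at least 1 log2 unit. Over all 7015 genes counted, 13.6% were higher and 23.4% lower by at least 1 log2 unit, 43.4% lay above 0 and 56.6% below, and the median was -0.16, against -0.25 for the 10 genes. Among the other isoenzymes Eno3 differed by -5.02, Aldoc by -2.11, Pfkp by -1.59, Ldhb by -1.13 and Pfkm by 0.71. Among cells with the gene detected the sign turned for Pfkl (0.20) and Ldhb (0.66), so those differences lay in how many cells had the gene. It turned for Aldoc too (0.56), but there only 1 of 20 mesenchyme-like cells had the gene. Fewer genes were found per mesenchyme-like cell, a median of 3623.5 against 4506. Among them were 2 cells with 1406 and 1773 genes, with Aldoa and Ldha listed at 0 and Gapdh at 0 and 0.405 FPKM. Leaving out 1 cell at a time does not show the joint part of these 2. With at least 2000 genes (18 and 36 cells) the median of the 10 was 0.058 and that of all genes -0.15. There 1 of the 10 was higher by at least 1 log2 unit. The sign of the median therefore depended on cells with few genes.

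**Figure D3:**
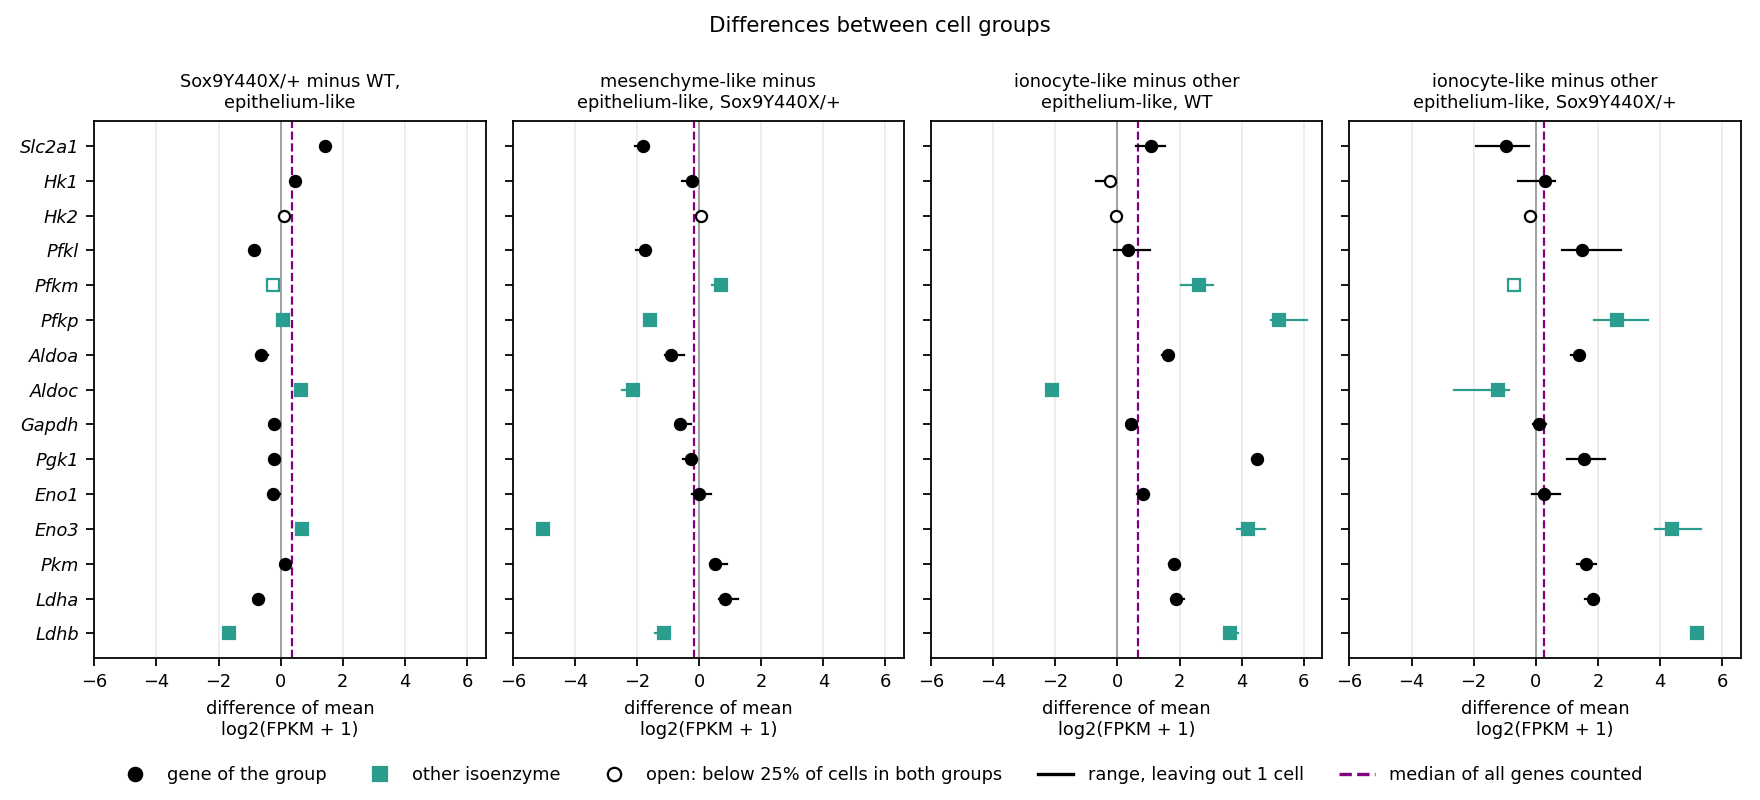
Points are differences of mean log2(FPKM + 1) in 4 comparisons, circles for the 10 genes and squares for other isoenzymes, with the range when any 1 cell is left out as a line and the median of all genes counted as a dashed line. In the mesenchyme-like comparison Eno3 had the lowest difference (-5.02). In the wild-type ionocyte-like comparison the largest were Pfkp (5.21), Pgk1 (4.49), Eno3 (4.20) and Ldhb (3.63). In the Sox9Y440X/+ ionocyte-like comparison they were Ldhb (5.20) and Eno3 (4.40).

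Within each genotype the ionocyte-like cells had the highest median sum over the 10 genes, 3243 FPKM in wild type and 1994 in Sox9Y440X/+, where the other epithelium-like cells had 1916 and 1324. In the 8 wild-type ionocyte-like cells Pgk1 was 94.2 through 245 to 457 FPKM and detected in 8 of 8, against 0 through 0.0983 to 409 and 23 of 48 (47.9%, 33.3% to 62.8%) in the other wild-type epithelium-like cells. Pkm was 155 through 230.4 to 549 against 0 through 174 to 548, Ldha 229 through 730.3 to 1636 against 0 through 319.7 to 1776, and Aldoa 742 through 1144 to 2460 against 0 through 564 to 3018. Each range lay inside that of the other cells or nearly so, and the ionocyte-like cells lacked the low values. The differences were 4.49 for Pgk1 (4.34 to 4.67), 1.90 for Ldha, 1.82 for Pkm, 1.62 for Aldoa, 1.07 for Slc2a1 (0.61 to 1.53), 0.81 for Eno1, 0.43 for Gapdh and 0.34 for Pfkl. All 8 genes counted lay above 0, and 5 by at least 1 log2 unit. Over all 7700 genes counted, 77.5% lay above 0, 36.6% by at least 1 log2 unit, and 22.5% below, 6.44% by as much, with a median of 0.67 against 0.94 for the 10 genes (1.35 for the 8 counted). These cells had more genes, a median of 4912.5 against 3137.5, and against 18 other cells of like gene number the median of the 10 was 0.28 and that of all genes 0.18. Pgk1 then differed by 3.64 and Aldoa by 1.63, and the rest were smaller: Ldha 0.92, Pkm 0.32 and Slc2a1 0.0048. Xist was detected in 3 of the 8 ionocyte-like cells and in 31 of the 48 others, and the part of this in the differences was not tested.

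In wild type the isoenzymes of the ionocyte-like cells differed from those of the other epithelium-like cells. Pfkp was detected in 7 of 8 at a median of 109.5 FPKM, against 8 of 48, and was the highest of the 3 phosphofructokinase genes in 6 of 8, where Pfkl was the highest in 31 of 38 of the other cells with any. Ldhb was 256 through 1151 to 1632 FPKM in the ionocyte-like cells against 0 through 189.6 to 1181, and Ldha was the higher of the pair in 2 of 8 against 28 of 48. Eno3 was detected in 8 of 8 at a median of 338 FPKM, against 23 of 48, while Aldoc was detected in 0 of 8 against 15 of 48. A count of 0 of 8 allows up to 3 cells of 8, a larger share than 15 of 48. Detection of Aldoc therefore did not separate these groups. As differences these were 5.21 for Pfkp, 4.20 for Eno3, 3.63 for Ldhb, 2.62 for Pfkm and -2.12 for Aldoc, and against cells of like gene number 4.43, 2.90 and 2.51 for the first 3. Pfkp overlaps the gene Pitrm1 and Pfkm overlaps Senp1, and reads in the shared stretch could belong to either gene.

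A further 3 wild-type cells had 7 to 10 ionocyte markers but 1209, 1974 and 2015 genes, and clustered elsewhere. Their Foxi1, the transcription factor of ionocytes, was 364, 674 and 1018 FPKM. Slc2a1, Hk1, Hk2, Pgk1, Pkm, Pfkp and Pfkm were all listed at 0 in these 3 cells, while Aldoa was 3018, 1861 and 2078 FPKM, Eno1 1456, 502 and 399, and Ldha 1776, 121 and 398. With them counted among the ionocyte-like cells, Pgk1 differed by 2.14, Pfkp by 3.46, Ldhb by 1.55, Slc2a1 by 0.07 and Pkm by -0.76, and the median of the 10 was 0.26 against 0.35 for all genes. The higher Pkm of ionocyte-like cells therefore rested on which cells were counted.

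The 5 Sox9Y440X/+ ionocyte-like cells gave a second look at the same contrast. Their Ldhb was 1369, 819, 527, 626 and 634 FPKM, all above the highest of the other 32 Sox9Y440X/+ epithelium-like cells (366). Eno3 was 408, 34.2, 1420, 2132 and 438 FPKM, and Pfkp 0, 119, 126, 67.2 and 0.0985. Pgk1 was detected in all 5, at 150.1, 14.7, 54.8, 4.03 and 63.8 FPKM, against 18 of 32 and up to 248 in the others, so the groups overlapped. Ldha was 855, 316, 299.5, 628 and 271, and Pkm 98.3, 420.3, 157, 561 and 247. The differences were 5.20 for Ldhb, 4.40 for Eno3, 2.61 for Pfkp, 1.83 for Ldha, 1.62 for Pkm, 1.55 for Pgk1 (1.003 to 2.23 when any 1 cell was left out), 1.49 for Pfkl (0.84 to 2.74), 1.38 for Aldoa and -0.95 for Slc2a1 (-1.91 to -0.23). Of the 9 genes counted, 8 lay above 0 and 5 of them by at least 1 log2 unit, against 57.3% and 30.5% of all 7150 genes, whose median was 0.28 against 0.83 for the 10 genes (1.38 for the 9 counted). Here the median number of genes was 4249 (4134 to 5607) in the ionocyte-like cells and 4572 (1959 to 6323) in the others, so only the others included cells with few genes. The part of gene number in these differences was not tested. Ldha was the higher of the pair in 1 of 5, against 24 of 30 of the other cells with either (80%). Pfkm was listed at 0 in all 5, and its difference was -0.72, against 2.62 in wild type. It was not among the genes counted here. Aldoc was detected in 1 of 5, at 136 FPKM, and differed by -1.21, against -2.12 in wild type. Pfkp was the highest phosphofructokinase gene in 2 of 4 ionocyte-like cells with any, against 6 of 8 in wild type. Among the other Sox9Y440X/+ cells with any it was the highest in 4 of 23.

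**Figure D4:**
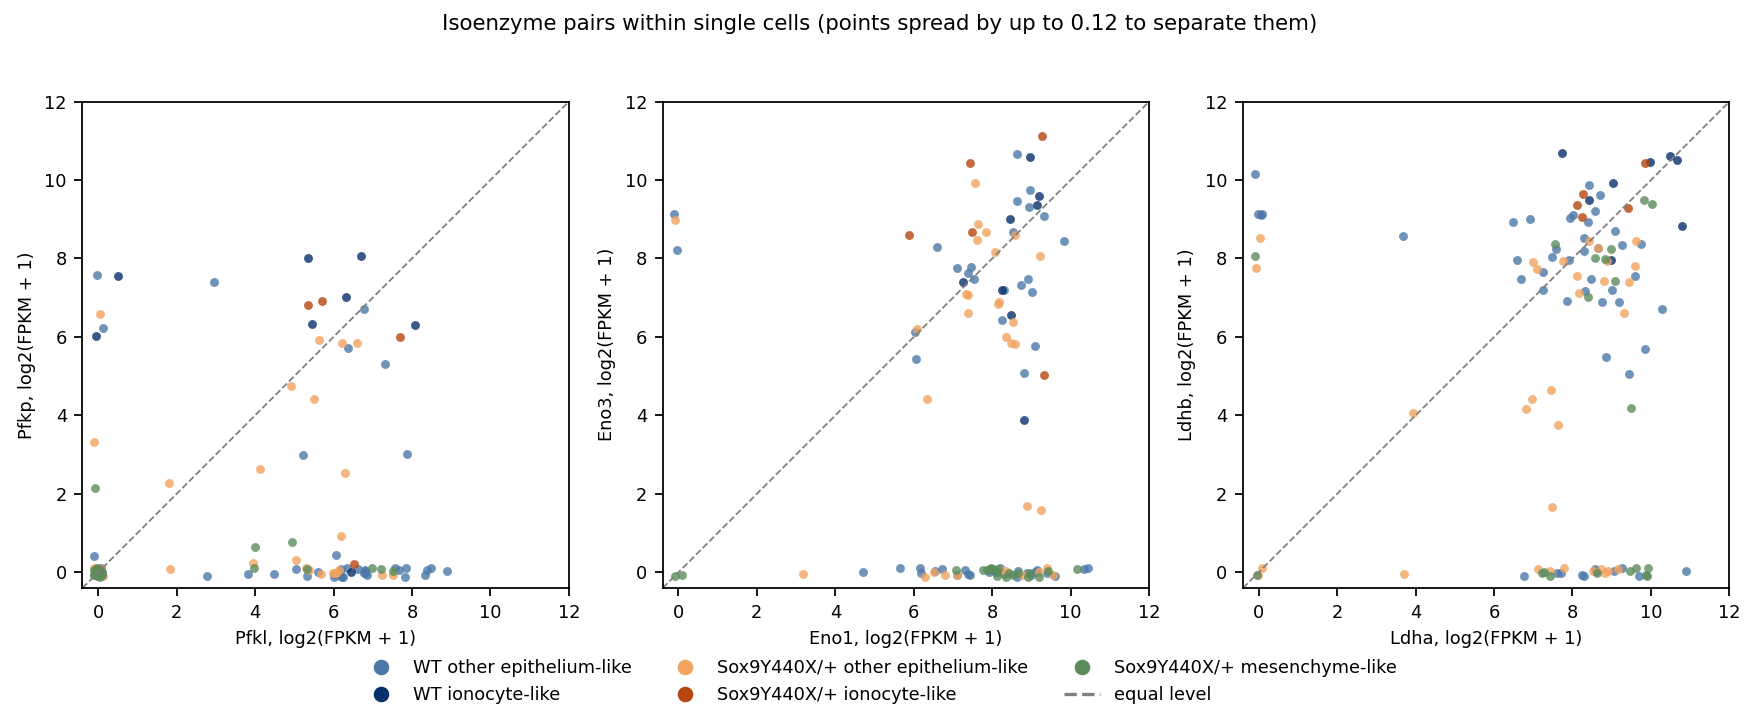
Each point is 1 cell, with the main isoenzyme on the horizontal and the alternative one on the vertical axis, both as log2(FPKM + 1), and the dashed line marks equal levels. Ldhb lay above the line in 6 of 8 wild-type and 4 of 5 Sox9Y440X/+ ionocyte-like cells, and Eno3 was at 0 in all 20 Sox9Y440X/+ mesenchyme-like cells.

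Neighbouring pathways were read from gene lists, and the shares over all genes stand beside the counts. In wild-type ionocyte-like cells the enzymes between the 10 genes were also higher, with Gpi1 at 2.77, the triose phosphate isomerase gene Tpi1 at 2.48 and the phosphoglycerate mutase gene Pgam1 at 2.41. Of 9 genes counted for pyruvate entry into mitochondria, 9 lay above 0 and 6 by at least 1 log2 unit, against 77.5% and 36.6% of all genes, led by the mitochondrial pyruvate carrier gene Mpc1 (5.38) and the pyruvate dehydrogenase complex genes Dld (3.52) and Dlat (2.73). All 6 pentose phosphate genes counted lay above 0 and 3 by at least 1 (Pgls 1.99, Taldo1 1.49, G6pdx 1.10), against the same shares of all genes. Of 10 hypoxia-response genes counted 9 lay above 0 and 5 by at least 1, among them Bnip3 (4.10) and Arnt (1.90), against those shares once more. Ppargc1a, a coactivator of mitochondrial genes, differed by 4.70, but by -1.39 among cells with it detected. The 9 broadly expressed reference genes counted had a median of -0.18. These wild-type differences compare cells with unlike gene numbers, medians of 4912.5 and 3137.5, and the part of this in them was not tested. Mpc1 was 0, 372 and 0 FPKM in the 3 wild-type cells with ionocyte markers that clustered elsewhere. The Sox9Y440X/+ ionocyte-like cells had Pgam1 at 2.42, Gpi1 at 1.84, Tpi1 at 1.21, Mpc1 at 4.13 and Dld at 3.90. Their hypoxia-response list was mixed, with 4 of 9 counted higher and 3 lower by at least 1 log2 unit (Epas1 1.70, Ero1l -1.86, Egln2 -1.48, Vhl -1.03), against 30.5% and 17.5% of all genes. Bnip3 was 76.9, 0, 0, 0 and 84.9 FPKM in these cells. In a list of upstream regulators 1 of 3 genes counted was higher and 2 lower by at least 1 log2 unit, against the same shares. Wild type had 2 of 2 counted higher by as much, against 36.6% of all genes.

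For mesenchyme-like against epithelium-like Sox9Y440X/+ cells 8 of 8 pyruvate entry genes counted lay below 0 and 3 by at least 1 log2 unit (Dld -1.59, Pdk3 -1.15, Pdha1 -1.05), against 56.6% and 23.4% of all genes. Gpi1 differed by -2.34 and Bsg, the chaperone of lactate transporters, by -2.10. Between genotypes in epithelium-like cells few list genes reached 1 log2 unit, Dld at 1.26 and the hypoxia factor gene Hif1a at 1.30 upwards, and Pdha1 at -1.04 and Ldhb at -1.66 downwards. Of all genes counted there, 13.5% were higher and 2.2% lower by as much. Within cluster 3 the 6 pentose phosphate genes counted were all lower in Sox9Y440X/+ cells, 2 of them by at least 1 log2 unit (Pgd -2.43, G6pdx -1.79), against 53.3% and 17.6% of all genes. Of 8 glycogen genes counted 3 were higher and 3 lower by at least 1 log2 unit, against 12.3% and 17.6% of all genes. Pdha1 differed by -3.19 and Pgam1 by -1.51, and Hif1a again lay above 0 (1.57). The reference genes there had a median of 0.0023.

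The genes whose level was most like the mean of the 10, over 93 epithelium-like cells after correction for gene number and genotype, were Car2 (Spearman rho 0.40), Shisa5 (0.38), Atp5b (0.37), Rnasek (0.37), Pgam1 (0.36), Spint1 (0.35), Bhlhe40 (0.35) and Elovl4 (0.34), among 1857 genes with a median of 0.03. Car2 is 1 of the 16 ionocyte markers, and the 13 ionocyte-like cells among the 93 were not corrected for. A difference between these cells and the others can therefore enter the values. The highest for single genes were Chchd10 with Aldoa (0.49), Tmem238 with Pkm (0.47) and Atox1 with Ldha (0.43). Correlations among the 10 genes themselves were weak over these 93 cells, with a median of 0.09 and a highest value of 0.28 over 45 pairs. Taken by group they spread more widely. The medians were 0.11 in wild-type epithelium-like, 0.06 in Sox9Y440X/+ epithelium-like and 0.13 in the 20 mesenchyme-like cells. The ranges were -0.19 to 0.42, -0.42 to 0.38 and -0.35 to 0.81, in that order. Values of at least 0.3 were found for 2, 8 and 15 of the 45 pairs. The cells have unknown depth, and those of a genotype may share animals, so these values are a description only.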

How the data were processed

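The authors deposited FPKM values per gene entry and cell in 1 table. Named in the submitters' processing notes, with no role or order, are the build mm10 and the tools Cufflinks, HISAT2, HTSeq and SAMtools 0.1.18, and the sources used here give no settings. Only 24.1% of low values (median over 110 cells, at a tolerance of 0.05 reads) came out as whole multiples of a step, so reads were not recovered and depth stayed unknown. Summed FPKM per cell had a median of 463017.

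Entries sharing a symbol (345) were summed. The 5 cells with fewer than 1000 genes per label were left out: among the 10 genes only Gapdh was above 0 there, in 2 of them (107 and 70.5 FPKM). Cells were clustered by Ward linkage into 8 clusters on 15 principal components of 1500 variable genes, the listed metabolic genes left out, and named from marker lists. Cells with at least 5 mesenchyme and at most 1 epithelium markers were then counted as mesenchyme-like, a limit set after marker counts were seen, which moved 3 cells. No doublet caller was run. Differences are of mean log2(FPKM + 1), with a pseudocount of 1. A difference of at least 1 log2 unit was counted in genes found in 25% or more of the cells in either group. No test was run, since the cells of a genotype are 1 sample, and shares carry exact Clopper-Pearson 95% intervals. All 10 genes are named, with list genes that differ by at least 1 log2 unit (at most 4 per list) and the 8 genes most like the 10. The 10 genes and the lists were chosen with earlier results of these data known, and the Sox9Y440X/+ ionocyte and cluster 3 comparisons were added after the data were seen. Coordinates are from GENCODE M21 (GRCm38). Near-identical copies (at least 90% identity over at least 50% of the length) were found with BLAST+ 2.17.0. The computation, tested on simulated data, used Python 3.11.15, numpy 2.4.6, pandas 2.3.3, SciPy 1.17.1 and matplotlib 3.10.9.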

Additional observations from a re-analysis of the deposited data

Results flagged for a closer look

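Hk1 in wild-type ionocyte-like cells stood out for 1 cell of 8, at 11.2 FPKM, with the other 7 listed at 0. With so many zeros any detected cell stands out in this way. Chance sets about 1 in 20 groups apart by this measure when values are continuous, and 18 groups of values were looked at.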

How the results depend on the processing

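No paired analysis was possible because cell numbers in the labels name cells only and no test was made. With 1 sample per genotype and unknown depth, neither animal-to-animal spread nor the chance of missing a transcript is known. Ward clustering into 5 or 12 clusters, 3000 variable genes or metabolic genes kept gave the same cell classes, and so the same values for the 10 genes in the 3 main comparisons (cluster 3 was not redrawn). Using all 120 cells tested nothing, since the 5 added cells entered no class compared.

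For Sox9Y440X/+ minus wild-type epithelium-like cells, the median difference of the 10 genes (-0.22) was 0.0499 with 2500 to 5500 genes, -0.52 against wild-type cells without Xist and -0.73 in cluster 3. The count higher by at least 1 log2 unit (1) was 0 with a pseudocount of 10, with the ratio of mean FPKM and in cluster 3. The count lower (0) was 1 with a pseudocount of 0.1, the ratio of mean FPKM, detected cells only, 2500 to 5500 genes, no Xist, classes by cluster name alone and leaving out the ionocyte-like cluster, and 3 in cluster 3.

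For mesenchyme-like minus epithelium-like cells, the median (-0.25) was 0.081 with the ratio of mean FPKM, 0.15 in detected cells only, 0.058 with at least 2000 genes and 0.054 with classes by cluster name alone. The count lower (2) was 0 with a pseudocount of 10, and 1 with the ratio of means and with classes by cluster name alone. The count higher (0) was 1 with at least 2000 genes, 2500 to 5500 genes and classes by cluster name alone. In detected cells only, Pfkl (0.20), Aldoc (0.56) and Ldhb (0.66) turned.

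For wild-type ionocyte-like minus other cells, the median (0.94) was 0.52 with a pseudocount of 10, 0.23 with the ratio of means, 0.47 in detected cells only, 0.26 with the 3 outside cells counted in and 0.28 with matched gene number. The count higher (5) was 2, and the count lower (0) was 1, with the ratio of means and in detected cells only, and the count higher was also 2 with matched gene number. Slc2a1 turned to -0.56 with the ratio of means and -0.45 in detected cells only, where Pfkm (-0.94) and Ppargc1a (-1.39) turned too, and Pkm turned to -0.76 with the outside cells counted in. The cause of these changes was not tested. The cluster name, cluster 3, outside-cell and matched-number settings were chosen after seeing the data.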
